A study of Mus musculus with 12 samples.

Results

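Glycolysis, lactate transport and the hypoxia response were followed through 38 genes of the 39756 in the deposited count table. The members were taken by gene symbol: 3 hexokinases, 6 phosphofructokinase subunits and bifunctional regulators, 10 enzymes of the other glycolytic steps, 2 lactate dehydrogenase subunits, 2 glucose transporters, 3 monocarboxylate transporters, 4 genes of the pyruvate dehydrogenase switch, and 8 genes of the hypoxia response. All 38 were in the table and all 38 passed the filter on low counts.

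RNA was sequenced from the ischemic hemisphere of 12 adult male C57BL/6J mice, 4 in each of 3 groups. Sham mice had the surgery without occlusion. Vehicle mice had tMCAO, a transient closure of the middle cerebral artery by a filament that is later removed to let blood back in, and received saline, and LJP mice had the same occlusion and received Laminaria japonica polysaccharide, a sulfated polysaccharide of brown seaweed. Per the study's methods, daily dosing into the stomach began before the occlusion and went on after it, and Sham mice received saline on the same schedule. The labels place all 12 mice in Batch1 and give neither dose nor time of sampling, and no treated mouse without occlusion was among them. The comparison of Vehicle with Sham asked what ischemia and reperfusion did to these genes. That of LJP with Vehicle asked how occluded mice given the polysaccharide before and after surgery differed from those given saline.

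Glycolysis splits glucose into pyruvate in the cytosol. Where oxygen is short or glycolysis outruns the mitochondria, lactate dehydrogenase turns pyruvate into lactate, which monocarboxylate transporters carry across membranes; in the brain, astrocytes are held to release lactate and neurons to take it up. Hypoxia-inducible factor 1 (HIF-1), a dimer whose alpha subunit is destroyed after prolyl hydroxylation when oxygen is present, binds a short DNA element near many glycolytic genes and raises their transcription. The alpha subunit is controlled mainly as a protein, so its mRNA does not measure HIF-1 activity.

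Total counts per mouse lay between 17960353 and 22216315, with group medians of 18815340.5 in Sham, 20021559.5 in Vehicle and 18824318.5 in LJP. Levels are in CPM, for which each library's counts were divided by its TMM-normalized size. Each comparison is an edgeR quasi-likelihood test over 17558 genes with Benjamini-Hochberg adjustment, and a gene is called at an adjusted p below 0.05. Vehicle mice 1 and 2 stood apart on the first principal component of all tested genes, which held 60.3% of the variance: they scored 69.6 and 113, against 13.7 and 27.5 for Vehicle mice 3 and 4, between -15.2 and 20.7 for LJP and between -56.7 and -51.6 for Sham. The calls of the members and the counts of the pathway lists are therefore also given without Vehicle mice 1 and 2, an alternative added after the data were seen.

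After ischemia, hexokinases 2 and 3, GLUT1 and the lactate transporters MCT1 and MCT4 were higher, while most enzymes of the other glycolytic steps were not called. Between Vehicle and Sham, 12 of the 38 members were higher (31.6%, against 22.7% of all tested genes), 4 were lower (10.5%, against 17.3%) and 22 were not called. With library sizes alone in place of TMM, the split was 14 higher and 1 lower (27% and 13.1% of all genes). The median log2 fold change of the members was 0.05, against 3.54e-05 over all genes, and the median absolute log2 fold change was 0.22, against 0.35 over all genes. In 11 members every Vehicle mouse lay above every Sham mouse, and in 7 every Vehicle mouse lay below, compared with 20.7% and 18.8% of all tested genes. Between LJP and Vehicle, none of the 38 was called in either direction (0% of all genes higher, 0.0228% lower), and between LJP and Sham 3 were higher and none lower (3.85% and 0.9% of all genes). The 12 higher in Vehicle than in Sham were Hk2, Hk3, Pfkfb3, Pfkfb4, Pkm, Ldha, Slc2a1, Slc16a1, Slc16a3, Pdk2, Hif1a and Ddit4, and the 4 lower were Pdk3, Bnip3, Ankrd37 and P4ha1. Without Vehicle mice 1 and 2, 8 were higher and 4 lower (15.7% and 14% of all genes): Pfkfb3, Ldha, Pdk2, Hif1a, Ddit4, Pdk3 and P4ha1 were no longer called, while Aldoc was called higher and Slc16a7 and Slc2a3 lower. Leaving out single mice gave 7 (without Sham mouse 1) to 12 higher, and 1 (without Sham mouse 1 or 2) to 7 (without Vehicle mouse 3 or 4) lower. Over all genes the calls moved too, from 3260 higher and 2025 lower without Sham mouse 1 to 4527 and 3673 without Vehicle mouse 3. Hk2, Hk3, Pfkfb4, Slc2a1, Slc16a1, Slc16a3, Hif1a and Ankrd37 passed in all 12 of these fits.

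**Figure D1:**
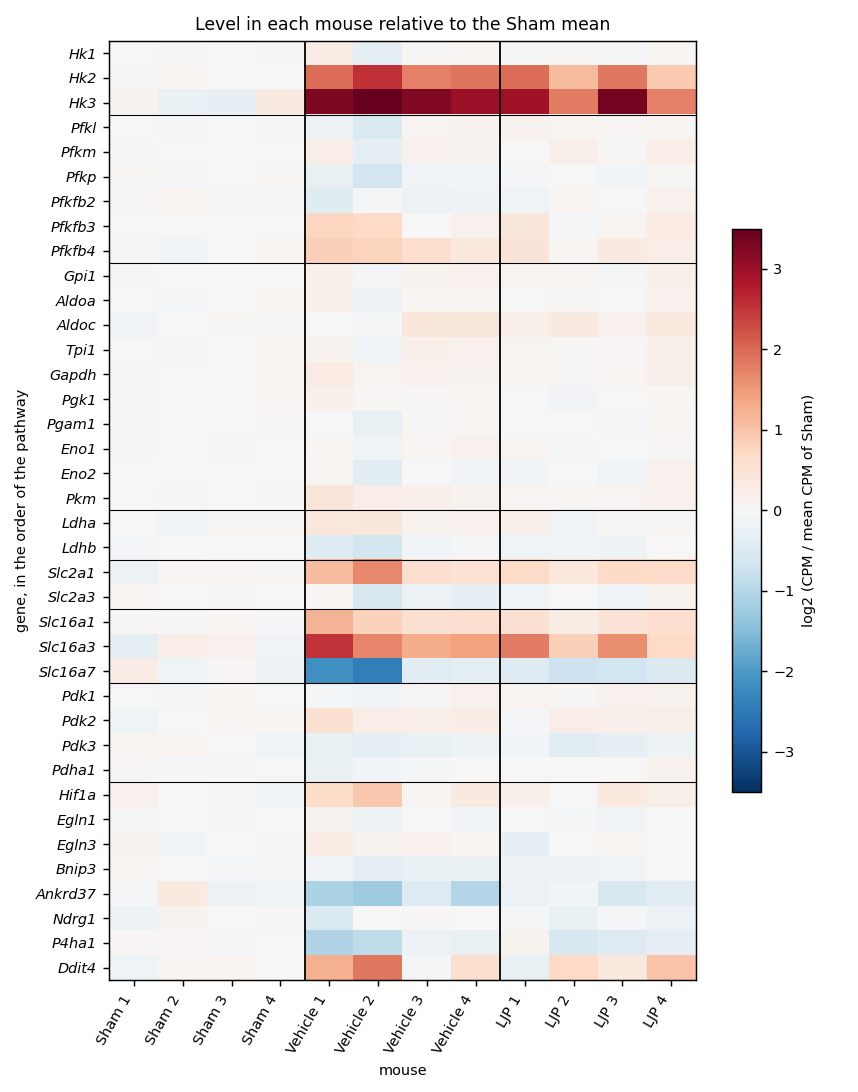
Colour shows log2 of the CPM of each of the 38 genes (rows, in pathway order, thin lines between roles) in each of the 12 mice (columns) over the mean CPM of the 4 Sham mice. Hk2, Hk3, Slc2a1, Slc16a1 and Slc16a3 are red in all 8 occluded mice, Slc16a7 is blue in all 8 and deepest in Vehicle mice 1 and 2, and the rows from Gpi1 to Eno2 stay near white.

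Markers of cell types were counted between the same groups, against 22.7% of all tested genes called higher and 17.3% called lower between Vehicle and Sham. Of 10 microglial markers 9 were called higher in Vehicle than in Sham, and their summed level was 366 to 378 CPM in Sham, 867 to 1553 in Vehicle and 729 to 1402 in LJP. All 8 tested markers of infiltrating monocytes and macrophages were higher, with sums of 102 to 108, 301 to 1505 and 151 to 358 CPM, as were the 2 of 10 neutrophil markers that passed the filter on low counts. Over all 10 neutrophil markers the sums were 6.52 to 7.95, 19.6 to 257 and 12.5 to 23.6 CPM. Of 10 endothelial markers 7 were higher (289 to 316, 394 to 1742 and 285 to 357 CPM), and of 10 neuronal markers 4 were lower (7703 to 8579, 4789 to 7469 and 7152 to 8371 CPM). Astrocyte markers split into 3 higher and 2 lower of 10, oligodendrocyte markers gave 2 higher of 10, pericyte and smooth muscle markers 4 higher of 10, erythrocyte markers 5 higher and 1 lower of 6, and choroid plexus markers none of 8. The summed choroid plexus level swung within groups: it was 34.0 to 926 CPM in Sham, 28.5 to 542 in Vehicle and 24.6 to 395 in LJP, with Vehicle mice 1 and 2 at 28.5 and 29.9 and Vehicle mice 3 and 4 at 542 and 499.8. Of the 8, 5 were lower in LJP than in Sham once Vehicle mice 1 and 2 were left out of the fit (12% of all genes). The calls between Vehicle and Sham in that fit, higher and lower, were 9 and 0 for microglia and 6 and 0 for monocytes and macrophages. They were 2 and 0 for neutrophils, 6 and 0 for endothelium, 1 and 5 for neurons and 5 and 2 for astrocytes. Oligodendrocyte markers gave 4 and 0, pericyte and smooth muscle markers 5 and 0, erythrocyte markers 2 and 1 and choroid plexus markers 0 and 0. Over all genes the shares were 15.7% and 14%. No marker of any list was at 0 in every mouse. Their part in the results on the 38 genes was not tested, and in bulk tissue fewer cells of a type and less RNA per cell cannot be told apart.

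Per kilobase of gene length, the members spanned more than 3 orders of magnitude on the log10 scale in Sham brain. Gapdh stood highest at 667 CPM per kb, followed by Aldoa at 595, Eno1 at 412, Pkm at 362, Tpi1 at 331 and Ldhb at 317. Of the hexokinases Hk1 dominated at 87.9 CPM per kb, against 0.958 for Hk2 and 0.521 for Hk3, the member with the lowest level. Among the lactate carriers Slc16a1 reached 7.07, Slc16a7 2.77 and Slc16a3 1.26 CPM per kb, and Slc2a1 stood at 47.2 against 26.9 for Slc2a3. In Vehicle the order of Slc16a3 (4.42) and Slc16a7 (1.37) was turned round, and in LJP it also was (3.13 and 1.84). Gapdh, Aldoa, Tpi1, Pgk1, Pgam1, Eno1, Pkm, Ldha and Ldhb have processed pseudogene copies in the mouse genome, and how reads shared with them were counted was not stated, so their absolute levels are uncertain; the retrocopy Eno1b held 5 to 19 counts per mouse.

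**Figure D2:**
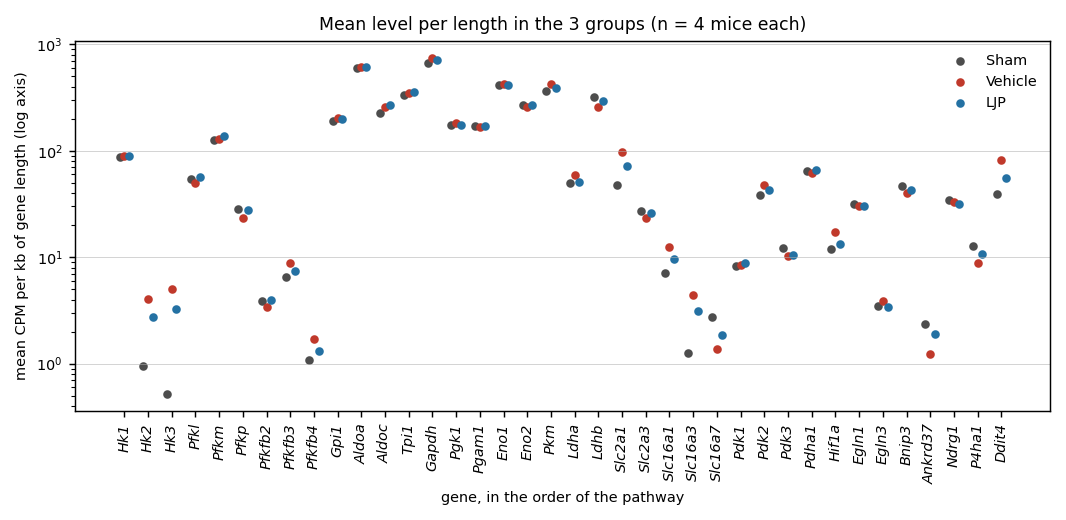
Points give the mean CPM per kb of gene length (log axis) of each member in Sham, Vehicle and LJP, 4 mice each. The abundant enzymes from Gpi1 to Pkm have nearly coincident points, while Hk2, Hk3 and Slc16a3, all at or below 1.26 CPM per kb in Sham, show the widest spacing.

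Hexokinases phosphorylate glucose and so trap it in the cell. Hk1, the constitutive brain isozyme, was at 474, 447, 477 and 482 CPM in the Sham mice, 567, 372, 486 and 492 in Vehicle and 460.1, 485, 454 and 495 in LJP. Its groups overlapped throughout, and its log2 fold change between Vehicle and Sham was 0.03 ± 0.11 (SE, edgeR adjusted p = 0.845). Hk2, the inducible isozyme that binds mitochondria and is a known HIF-1 target (Entrez Gene 15277, chromosome 6 from 82725025 to 82774454, GRCm38), was at 5.31, 5.67, 5.37 and 5.34 CPM in Sham, 21.1, 32.1, 18.4 and 19.99 in Vehicle, and 21.2, 11.7, 19.4 and 10.2 in LJP. Every occluded mouse lay above every Sham mouse. The mean rose from 5.42 ± 0.166 to 22.9 ± 6.24 CPM (SD, n = 4 each), or by 2.08 ± 0.25 on the log2 scale (edgeR adjusted p = 0.000153), and without Vehicle mice 1 and 2 it was 1.82 ± 0.23. LJP stood 1.53 ± 0.24 above Sham on the log2 scale (adjusted p = 0.00374) and its 4 mice overlapped with Vehicle, with a difference of -0.55 ± 0.23 (adjusted p = 0.141).

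Hk3, a hexokinase found mainly in myeloid cells (Entrez Gene 212032, chromosome 13 from 55005985 to 55021475), was the member with the largest change. It measured 1.96, 1.53, 1.48 and 2.23 CPM in Sham, 17.2, 20.9, 16.9 and 14.7 in Vehicle, and 14.1, 6.29, 18.4 and 6.13 in LJP. The Sham and Vehicle ranges were far apart, and LJP mice 1 and 3 fell near Vehicle while LJP mice 2 and 4 lay between the other groups. Its log2 fold change was 3.27 ± 0.35 between Vehicle and Sham (edgeR adjusted p = 0.000112) and 2.64 ± 0.35 between LJP and Sham (adjusted p = 0.00142). LJP against Vehicle gave -0.63 ± 0.31 (adjusted p = 0.184), and Vehicle against Sham was 3.12 ± 0.38 without Vehicle mice 1 and 2 (adjusted p = 3.34e-05). Hk3 overlaps Unc5a on the opposite strand, which held at least 2584 counts per mouse against a minimum of 27 for Hk3. The overlap is between gene spans, exons were not compared, and the counting's strand setting was not given in the sources used here. Whether such pairs shared reads is therefore unknown.

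Phosphofructokinase commits sugar to glycolysis, and the Pfkfb enzymes make or remove its activator fructose 2,6-bisphosphate. The 3 subunit genes were not called: Pfkl gave a log2 fold change of -0.10 ± 0.11 between Vehicle and Sham, Pfkm 0.06 ± 0.11 and Pfkp -0.27 ± 0.11 (edgeR adjusted p = 0.0699), and of these only Pfkp had Vehicle mice that were all below Sham. Pfkfb4 (Entrez Gene 270198, chromosome 9 from 108988272 to 109032236) was at 13.2, 12.2, 12.8 and 13.5 CPM in Sham, 23.1, 22.3, 19.4 and 16.7 in Vehicle and 17.7, 13.5, 16.2 and 15.1 in LJP. All Vehicle mice lay above all Sham mice, and the LJP mice ran from the top of Sham into the bottom of Vehicle. It rose by 0.66 ± 0.12 on the log2 scale in Vehicle (adjusted p = 0.00173), and by 0.47 ± 0.12 without Vehicle mice 1 and 2 (adjusted p = 0.00747). Pfkfb3, the form with strong kinase activity, was at 41.8, 42.0, 41.7 and 41.5 CPM in Sham, 70.3, 67.1, 42.5 and 46.5 in Vehicle, and 55.3, 39.5, 44.8 and 51.2 in LJP. Sham was tight, and Vehicle mouse 3 lay just above it. The call of Pfkfb3 (0.44 ± 0.16, adjusted p = 0.0397) rested on Vehicle mice 1 and 2, without which the difference was 0.09 ± 0.10 (adjusted p = 0.588). Pfkfb2, the form known from heart, was at 39.4, 40.3, 37.1 and 36.5 CPM in Sham, 28.6, 37.2, 33.1 and 33.6 in Vehicle and 34.6, 40.1, 38.2 and 42.5 in LJP, with groups that overlapped and a log2 fold change of -0.21 ± 0.09 (adjusted p = 0.0857). On the opposite strand, Pfkfb2 overlaps Yod1, which held 185 to 268 counts per mouse against a minimum of 615 for Pfkfb2. Pfkp likewise overlaps Pitrm1 (460 to 1019 counts against a minimum of 4796).

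Of the 10 enzymes of the other glycolytic steps only Pkm was called between Vehicle and Sham, and the whole set lay between -0.08 and 0.24 on the log2 scale. Pkm, pyruvate kinase, measured 1476, 1428, 1484 and 1509 CPM in Sham, 1964, 1740.0, 1658 and 1615 in Vehicle, and 1543, 1566, 1563 and 1650.0 in LJP. Every occluded mouse was above every Sham mouse, and Vehicle was 0.24 ± 0.08 higher (edgeR adjusted p = 0.0301), or 0.14 ± 0.05 without Vehicle mice 1 and 2 (adjusted p = 0.0387). Gapdh, often used as a reference gene, was at 1241, 1263, 1289 and 1353 CPM in Sham, 1573, 1383, 1431 and 1404 in Vehicle, and 1342, 1328, 1357 and 1456 in LJP. Its Vehicle mice all lay above Sham without passing the test (0.17 ± 0.08, adjusted p = 0.0881). Gpi1 (0.10), Aldoa (0.04), Tpi1 (0.07), Pgk1 (0.08), Pgam1 (-0.03), Eno1 (0.04) and the neuronal enolase Eno2 (-0.08) had log2 fold changes with standard errors between 0.07 and 0.10. The astrocyte aldolase Aldoc gave 0.21 ± 0.11 (adjusted p = 0.142), with Vehicle mice 1 and 2 at 645 and 629 CPM inside the Sham range of 604 to 661 and Vehicle mice 3 and 4 at 856 and 852 CPM. Without Vehicle mice 1 and 2 it was 0.40 ± 0.06 (adjusted p = 0.000257).

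**Figure D3:**
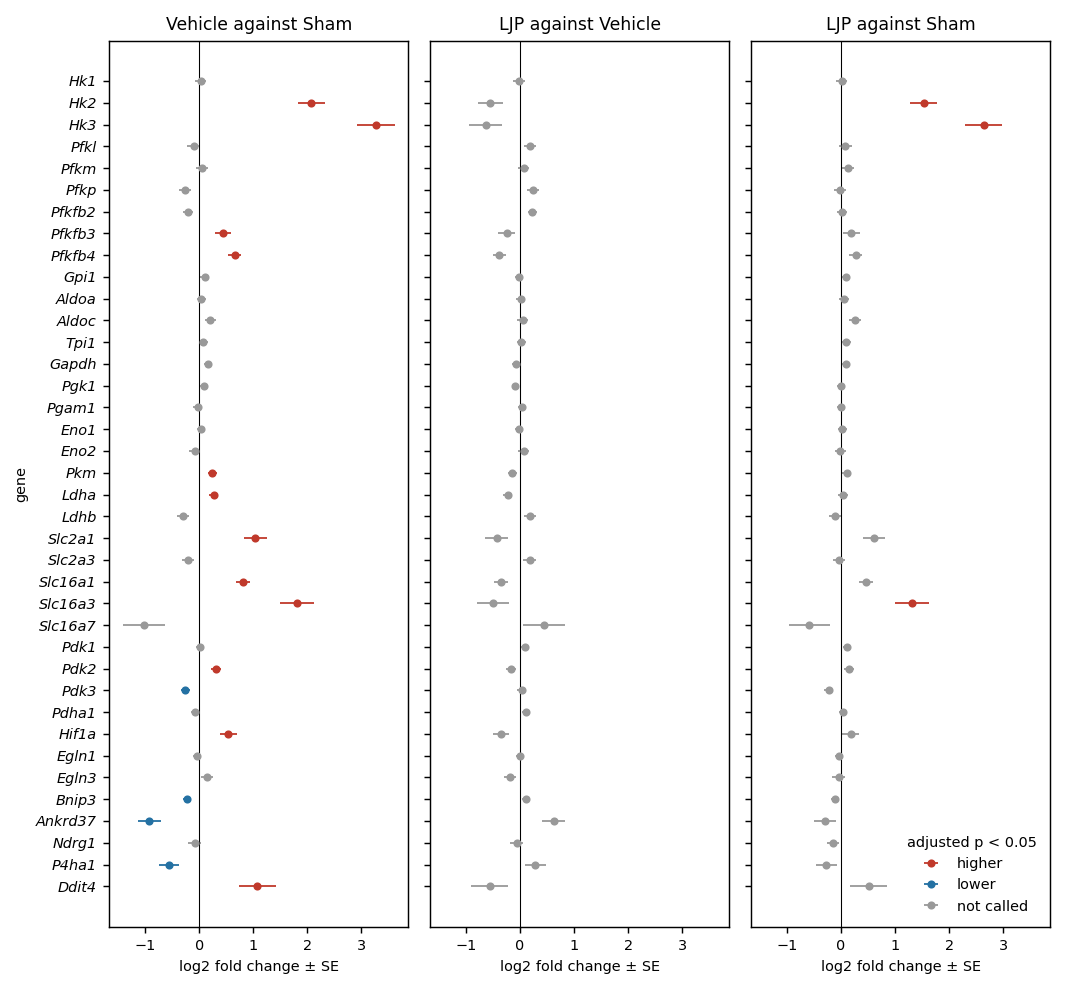
Points are edgeR log2 fold changes of the 38 members with their standard errors (bars) in the 3 comparisons, red where called higher, blue where called lower and grey where not called. The left panel holds 12 red and 4 blue points, the middle panel none, and the right panel 3 red points, Hk2, Hk3 and Slc16a3.

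Lactate dehydrogenase is a tetramer of A subunits, which favour lactate formation, and B subunits, common in oxidative tissue. Ldha was at 266, 250.4, 271 and 275 CPM in Sham, 343, 350.2, 287 and 297 in Vehicle, and 298, 245, 275 and 271 in LJP. All Vehicle mice exceeded all Sham mice, and LJP mice 2, 3 and 4 lay close to the Sham range. Ldhb was at 393, 420.4, 421 and 422 CPM in Sham, 306, 266, 386 and 392.3 in Vehicle, and 372, 379, 368 and 416 in LJP, with all Vehicle mice below Sham, mouse 4 only just. Ldha rose by 0.27 ± 0.09 (edgeR adjusted p = 0.0268) and Ldhb gave -0.30 ± 0.11 (adjusted p = 0.054). The log2 ratio of Ldha to Ldhb counts was -0.56, -0.75, -0.64 and -0.62 in Sham, 0.17, 0.40, -0.42 and -0.40 in Vehicle, and -0.32, -0.63, -0.42 and -0.62 in LJP. Only Vehicle mice 1 and 2 had more counts for Ldha than for Ldhb; these are counts not scaled by length, and per kb the Vehicle means were 59.8 CPM for Ldha and 259 for Ldhb. Without these mice neither gene was called (Ldha 0.13 ± 0.07, adjusted p = 0.187, and Ldhb -0.10 ± 0.06, adjusted p = 0.277).

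Slc2a1 encodes GLUT1, the glucose transporter of the blood-brain barrier and astrocytes, and Slc2a3 encodes the neuronal GLUT3. Slc2a1 (Entrez Gene 20525, chromosome 4 from 119108745 to 119137330) measured 109.9, 135, 132 and 129.9 CPM in Sham, 267, 407, 191 and 179 in Vehicle, and 202, 165, 204 and 202 in LJP. Every occluded mouse lay above Sham, with Vehicle mouse 2 the highest, and LJP overlapped the lower Vehicle mice. The log2 fold change was 1.04 ± 0.21 in Vehicle (edgeR adjusted p = 0.00288), 0.54 ± 0.09 without Vehicle mice 1 and 2 (adjusted p = 0.000595), and 0.61 ± 0.21 between LJP and Sham (adjusted p = 0.134). Slc2a3 was at 160.3, 151, 145 and 151 CPM in Sham, 160.0, 103, 135 and 126 in Vehicle and 138, 152, 138 and 164 in LJP, and its groups overlapped (-0.21 ± 0.11, adjusted p = 0.149). It was called lower without Vehicle mice 1 and 2 (-0.23 ± 0.08, adjusted p = 0.0356), as it was without Vehicle mouse 1 alone (-0.32 ± 0.10, adjusted p = 0.0255). The log2 ratio of Slc2a1 to Slc2a3 was above 0 in all 8 occluded mice and below 0 in all 4 Sham mice, with means of -0.26, 0.93 and 0.38 in Sham, Vehicle and LJP.

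Of the 3 monocarboxylate transporters 2 were higher and the third, Slc16a7, was not called. Slc16a1, which encodes MCT1 of endothelium and glia (Entrez Gene 20501, chromosome 3 from 104638664 to 104658462), was at 32.4, 30.2, 33.0 and 29.8 CPM in Sham, 71.2, 54.8, 45.6 and 47.4 in Vehicle, and 45.1, 37.2, 42.9 and 46.6 in LJP. Every occluded mouse was above every Sham mouse, and the rise was 0.81 ± 0.13 in Vehicle (edgeR adjusted p = 0.000852) and 0.45 ± 0.13 in LJP, the latter not called (adjusted p = 0.0695). Leaving out Vehicle mice 1 and 2, the rise in Vehicle was 0.56 ± 0.09 (adjusted p = 0.000247). Slc16a3, which encodes the low-affinity lactate exporter MCT4 and is a known HIF-1 target (Entrez Gene 80879, chromosome 11 from 120948484 to 120959000), was at 3.52, 5.18, 4.93 and 4.09 CPM in Sham, 25.4, 14.3, 10.8 and 11.8 in Vehicle, and 15.3, 7.92, 13.7 and 7.13 in LJP. Again no occluded mouse reached down to Sham, and the log2 fold change was 1.81 ± 0.31 in Vehicle (adjusted p = 0.00127) and 1.31 ± 0.31 in LJP (adjusted p = 0.032). Its rise in Vehicle was 1.34 ± 0.27 without Vehicle mice 1 and 2 (adjusted p = 0.00155). The LJP call of Slc16a3 was lost in 6 of the 12 fits that left out 1 mouse. Slc16a3 overlaps Csnk1d on the opposite strand, with at least 2960 counts per mouse against a minimum of 61 for Slc16a3.

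Slc16a7, which encodes the high-affinity neuronal MCT2 (Entrez Gene 20503, chromosome 10 from 125219270 to 125389586), had its highest levels in Sham. It measured 40.2, 30.4, 34.7 and 30.2 CPM in Sham, 7.58, 6.27, 26.2 and 26.9 in Vehicle, and 24.5, 20.6, 21.4 and 23.6 in LJP. All occluded mice lay below all Sham mice, with Vehicle mice 1 and 2 far below the rest. The log2 fold change of -1.02 ± 0.39 just missed the threshold (edgeR adjusted p = 0.0503), DESeq2 called it (adjusted p = 0.0202), and without Vehicle mice 1 and 2 it was -0.36 ± 0.12 (adjusted p = 0.0312). The log2 ratio of Slc16a1 to Slc16a7 was between -0.31 and -0.01 in Sham, at 3.23, 3.12, 0.80 and 0.82 in Vehicle, and between 0.85 and 1.00 in LJP. That of Slc16a3 to Slc16a7 was between -3.504 and -2.54 in Sham, at 1.74, 1.19, -1.27 and -1.19 in Vehicle, and between -1.72 and -0.64 in LJP. In both ratios Vehicle mice 3 and 4 lay at the level of the LJP mice or just below, apart from Vehicle mice 1 and 2. For both ratios the 8 occluded mice lay above the Sham mice, and LJP overlapped Vehicle.

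**Figure D4:**
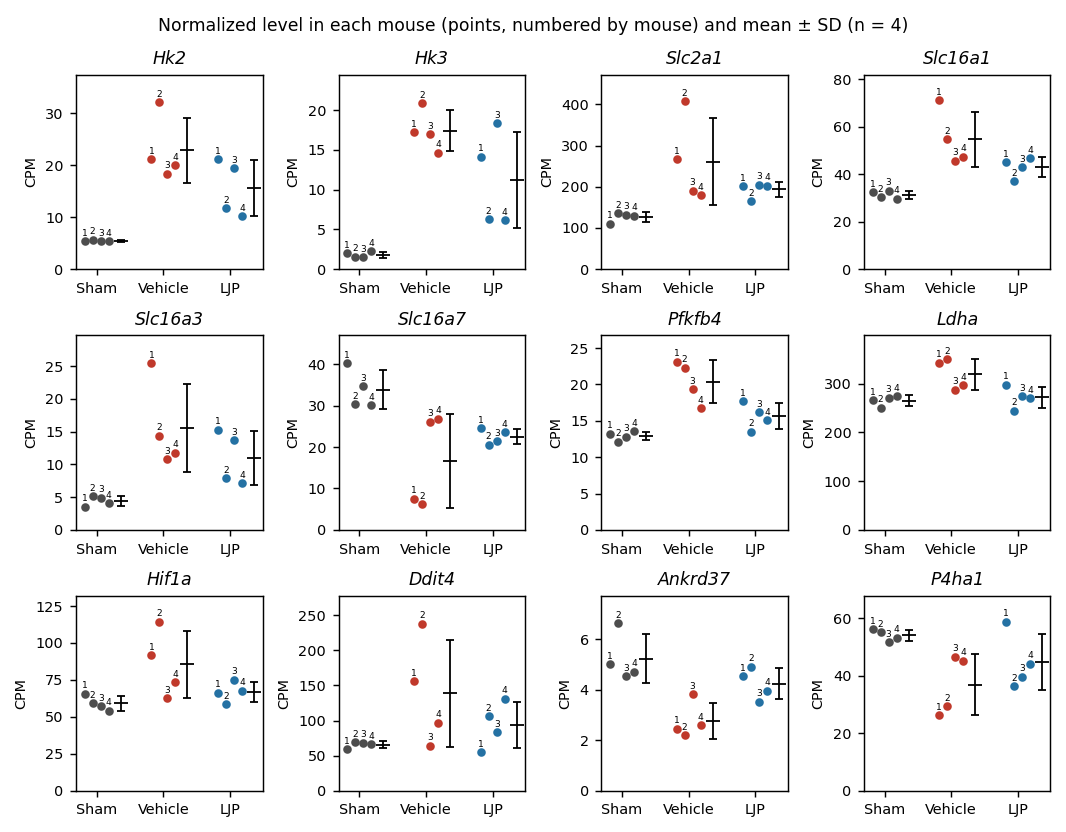
Each panel shows the CPM of a gene in each mouse (points, numbered by mouse) with the mean and SD of the 4 mice beside them, on axes that start at 0. Vehicle mice 1 and 2 are the extreme points for Slc2a1, Slc16a7, Hif1a, Ddit4 and P4ha1, while for Hk3 and Pfkfb4 all 4 Vehicle mice lie above Sham.

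Pyruvate dehydrogenase admits pyruvate to the mitochondrial citrate cycle, and its kinases switch it off by phosphorylation. Its catalytic subunit gene Pdha1 was at 189, 178, 189.8 and 184 CPM in Sham, 159, 172, 179.9 and 188 in Vehicle, and 183, 185, 186 and 202 in LJP, with overlapping groups and a difference of -0.08 ± 0.07 on the log2 scale (edgeR adjusted p = 0.343). Pdk2, the widely expressed kinase, rose from 100.5 ± 7.31 to 125 ± 14.4 CPM (SD, n = 4; 0.32 ± 0.09, adjusted p = 0.0177). Pdk3 fell from 25.3 ± 1.55 to 21.2 ± 0.832 CPM, a log2 fold change of -0.26 ± 0.09 (adjusted p = 0.0308). Pdk1, the kinase best known as a HIF-1 target, gave 0.02 ± 0.07 (adjusted p = 0.849). Without Vehicle mice 1 and 2 neither Pdk2 nor Pdk3 was called, at 0.22 ± 0.08 for Pdk2 (adjusted p = 0.0582) and -0.23 ± 0.10 for Pdk3 (adjusted p = 0.0971). The call of Pdk3 held in 2 of 6 fits with another method, scaling, filter or model, and not with library sizes alone.

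The 8 hypoxia response genes did not share a direction: 2 were higher, 3 lower and 3 not called. Hif1a, the oxygen-regulated alpha subunit of HIF-1 (Entrez Gene 15251, chromosome 12 from 73901324 to 73947554), was at 65.8, 59.1, 57.2 and 54.2 CPM in Sham, 91.8, 114, 62.8 and 73.3 in Vehicle, and 66.5, 58.6, 75.2 and 67.7 in LJP. Vehicle mice 1 and 2 were clearly above Sham, Vehicle mouse 3 lay within its range, and the rise of 0.54 ± 0.16 (edgeR adjusted p = 0.0165) became 0.20 ± 0.10 without those 2 mice (adjusted p = 0.154). Ddit4, the stress-induced mTORC1 inhibitor REDD1 (Entrez Gene 74747, chromosome 10 from 59949675 to 59951770), was at 58.9, 68.9, 68.7 and 66.1 CPM in Sham, 156, 238, 64.3 and 96.7 in Vehicle, and 54.6, 106, 83.5 and 131 in LJP. It varied widely among the occluded mice, overlapped with Sham in both occluded groups, and its difference of 1.08 ± 0.34 (adjusted p = 0.025) was 0.29 ± 0.24 without Vehicle mice 1 and 2 (adjusted p = 0.406).

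Ankrd37, an ankyrin repeat gene known as a HIF-1 target (Entrez Gene 654824, chromosome 8 from 45996908 to 46000414), was lower after ischemia. It measured 5.02, 6.65, 4.55 and 4.72 CPM in Sham, 2.45, 2.19, 3.82 and 2.59 in Vehicle, and 4.54, 4.91, 3.54 and 3.96 in LJP. All Vehicle mice lay below all Sham mice, and it fell by 0.92 on the log2 scale (SE 0.21, edgeR adjusted p = 0.00503), and the difference was -0.71 ± 0.23 without Vehicle mice 1 and 2 (adjusted p = 0.0289). Ankrd37 overlaps Ufsp2 on the opposite strand, with at least 362 counts per mouse against a minimum of 48 for Ankrd37. P4ha1, a prolyl hydroxylase of collagen, was at 56.0, 55.2, 51.7 and 53.2 CPM in Sham, 26.2, 29.3, 46.6 and 45.2 in Vehicle, and 58.7, 36.4, 39.6 and 44.1 in LJP. All Vehicle mice lay below Sham, with mice 1 and 2 lowest, and the difference was -0.56 ± 0.19 (adjusted p = 0.0337), or -0.24 ± 0.13 without those mice (adjusted p = 0.204). The mitophagy receptor gene Bnip3 fell from 82.1 ± 3.82 to 70.0 ± 4.65 CPM (SD, n = 4), a difference of -0.23 ± 0.07 (adjusted p = 0.0254), which library sizes alone did not call and which was -0.24 ± 0.07 without Vehicle mice 1 and 2 (adjusted p = 0.0181). The call of Bnip3 held in 3 of 6 fits with another method, scaling, filter or model. The prolyl hydroxylase genes Egln1 (-0.04 ± 0.07) and Egln3 (0.15 ± 0.11), whose enzymes mark HIF-1 alpha for destruction, and Ndrg1 (-0.08 ± 0.12) were not called.

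The promoter sequences of the 3 hypoxia response genes with the smallest p between Vehicle and Sham are shown, chosen by p and not by their letters or direction. Ankrd37 fell while Hif1a and Ddit4 rose. The letters do not set these genes apart, as Bnip3, P4ha1, Egln1 and Egln3 also held ACGTG. Each run is the 250 bases before a RefSeq start site, 5′ to 3′ on the strand of the gene, in build GRCm38.p6. The windows of Ankrd37 and Hif1a lie before an inner start site, 564 and 6543 bases from the outermost start of the gene, and so inside the gene spans given above. The capitals mark ACGTG or GCGTG on either strand, with overlapping matches run together. Ankrd37 is read from chr8:45999851-46000100 on the minus strand, Hif1a from chr12:73907617-73907866 on the plus strand and Ddit4 from chr10:59951771-59952020 on the minus strand.
Ankrd37: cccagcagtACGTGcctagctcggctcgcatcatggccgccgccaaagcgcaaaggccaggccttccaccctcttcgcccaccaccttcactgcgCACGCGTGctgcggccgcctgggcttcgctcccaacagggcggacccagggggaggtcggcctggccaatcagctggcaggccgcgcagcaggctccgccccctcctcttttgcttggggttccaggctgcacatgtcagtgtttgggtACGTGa
Hif1a: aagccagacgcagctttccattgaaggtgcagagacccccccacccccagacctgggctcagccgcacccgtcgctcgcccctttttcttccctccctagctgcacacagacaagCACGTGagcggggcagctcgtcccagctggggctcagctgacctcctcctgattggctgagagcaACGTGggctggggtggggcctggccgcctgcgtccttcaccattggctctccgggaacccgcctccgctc
Ddit4: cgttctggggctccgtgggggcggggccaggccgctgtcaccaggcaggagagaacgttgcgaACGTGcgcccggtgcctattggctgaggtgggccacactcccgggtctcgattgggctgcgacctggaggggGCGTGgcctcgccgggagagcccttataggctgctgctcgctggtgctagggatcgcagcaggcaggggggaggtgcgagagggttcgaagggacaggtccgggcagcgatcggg

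In these windows ACGTG occurred 2 times for Ankrd37, 3 times for Hif1a and 1 time for Ddit4, and GCGTG 2, 0 and 1 times, counting CACGTG on both strands. A promoter was listed for 35 of the 38 members, and Slc16a7, Slc2a3 and Ndrg1 had none. Of the 51 listed promoters of members, 51% held ACGTG, against 16.6% of all 32851 listed promoters, and 82.4% held ACGTG or GCGTG, against 38.6%. The promoters of members were also richer in CG, with a median of 14 CG pairs against 6. ACGTG was found for 11 of 12 members called higher, 4 of 4 called lower and 7 of 19 not called. ACGTG or GCGTG was found for 12 of 12, 4 of 4 and 16 of 19. These counts take a gene with a match in any of its listed promoters, and the share of all genes counted this way was not computed. The members were chosen as genes of glycolysis and hypoxia, several of them known HIF-1 targets. A match of letters is a description of these windows and does not show binding.

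Between LJP and Vehicle no member passed the test. At an unadjusted p below 0.05, 3 members were higher and 5 lower, against 12.3% and 17.4% of all genes, and the median log2 fold change of the members was -0.01 against -0.00174 over all genes. Every LJP mouse lay above every Vehicle mouse for 0 members (5.77% of all genes) and below for 1 (5.91%), Egln3, a gene singled out after its values were seen. Egln3 was at 11.2, 10.1, 10.4 and 9.86 CPM in Vehicle and 7.77, 9.41, 9.84 and 9.36 in LJP, a difference of -0.19 ± 0.11 (edgeR adjusted p = 0.26). The 6 members with the smallest p were Pfkfb4 (-0.38 ± 0.12, adjusted p = 0.0789), Ankrd37 (0.62 ± 0.21, adjusted p = 0.0923), Slc16a1 (-0.35 ± 0.13, adjusted p = 0.106), Ldha (-0.23 ± 0.09, adjusted p = 0.109), Pfkfb2 (0.23 ± 0.09, adjusted p = 0.129) and Hk2 (-0.55 ± 0.23, adjusted p = 0.141). The number of calls between LJP and Vehicle depended on the fit, for all genes as for the members. DESeq2 called Ankrd37 higher (adjusted p = 0.0432) and Pfkfb4 lower (adjusted p = 0.0371), 1 of 38 each, against 3.81% and 9.36% of all genes. Leaving out Vehicle mouse 3 gave 5 calls by edgeR, with Ankrd37 higher (8.46% of all genes) and Hif1a, Ldha, Pfkfb4 and Slc16a1 lower in LJP (13.1%). Without Vehicle mice 1 and 2 none was called (0% and 0.0443% of all genes), and the difference was -0.21 ± 0.12 for Pfkfb4, 0.40 ± 0.23 for Ankrd37, -0.12 ± 0.09 for Slc16a1, -0.10 ± 0.07 for Ldha, 0.22 ± 0.09 for Pfkfb2 and -0.29 ± 0.22 for Hk2. The sign of the difference turned in 14 of the 38 members without these mice, of which 5 had differed by over 0.2 on the log2 scale: Ddit4 (-0.56 to 0.22), Slc2a1 (-0.43 to 0.06), Slc16a7 (0.44 to -0.24), P4ha1 (0.28 to -0.04) and Pfkfb3 (-0.25 to 0.10). A p above the threshold does not show that the groups were alike.

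Between LJP and Sham, Hk2, Hk3 and Slc16a3 were higher, and no member was lower. Every LJP mouse lay above every Sham mouse in 7 members (12.9% of all genes) and below in 1 (12%). Besides the 3 called, Slc2a1, Slc16a1, Pkm and Aldoc had LJP mice that were all above Sham without passing the test, and Slc16a7 had LJP mice that were all below (-0.59 ± 0.38, edgeR adjusted p = 0.45). With Vehicle mice 1 and 2 left out of the fit, although they are in neither group, 6 members were higher and 2 lower (12.3% and 12% of all genes), with Slc2a1 (0.60 ± 0.08), Slc16a1 (0.45 ± 0.07) and Aldoc (0.25 ± 0.05) added to the higher. The lower were Slc16a7 (-0.59 ± 0.09, adjusted p = 0.00042) and Pdk3 (-0.24 ± 0.08, adjusted p = 0.0457). The comparisons of LJP and of Vehicle with Sham share the same 4 Sham mice.

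Ratios of isozymes within a mouse do not depend on how libraries were scaled, and were described for 10 pairs without a test. Vehicle and Sham did not overlap in 7 of them: 6 were higher in Vehicle and 1, Pfkp to Pfkm, was lower, with group means of -0.45 in Sham, -0.78 in Vehicle and -0.59 in LJP. The log2 ratio of Hk2 to Hk1 was between -6.49 and -6.29 in Sham, between -4.74 and -3.53 in Vehicle and between -5.60 and -4.44 in LJP, so Hk1 remained far more abundant in every mouse. That of Pfkfb3 to Pfkfb2 rose from a mean of 0.12 in Sham to 0.74 in Vehicle and was 0.29 in LJP. Pfkl to Pfkm, Aldoa to Aldoc and Eno1 to Eno2 overlapped between Vehicle and Sham. LJP overlapped with Vehicle in all 10 pairs, and with Sham in 5.

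**Figure D5:**
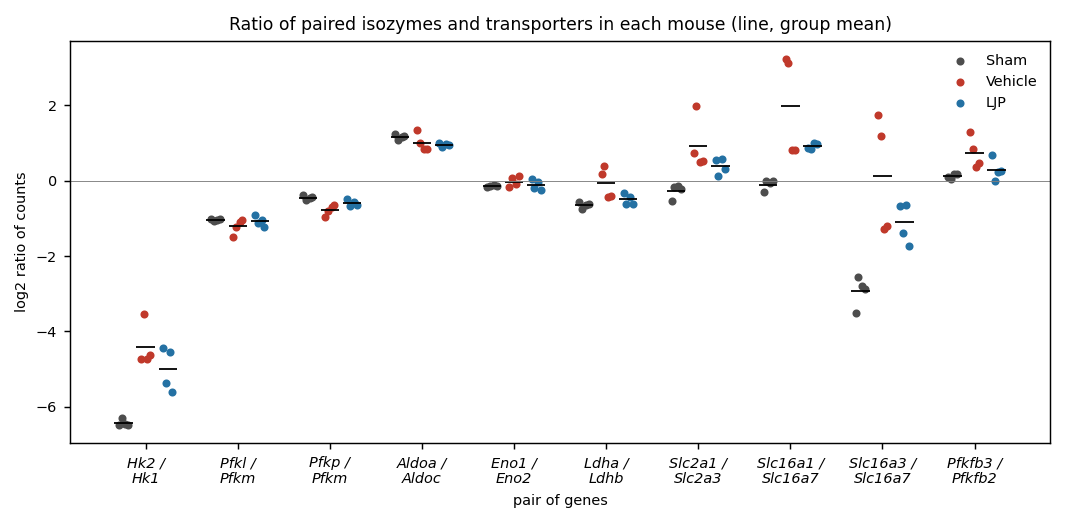
Points are log2 ratios of the counts of 2 genes in each mouse for the 10 pairs, coloured by group, with a line at each group mean. Occluded mice sit above Sham for Hk2 / Hk1, Slc2a1 / Slc2a3 and both Slc16a ratios, and Vehicle mice 1 and 2 form the upper points of the Slc16a ratios.

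Neighbouring parts of the same metabolism were read from 7 further gene lists, whose counts stand beside 22.7% of all genes called higher and 17.3% called lower. Of 8 pentose phosphate pathway genes, which make NADPH and ribose from glucose 6-phosphate, 6 were higher in Vehicle than in Sham, with the smallest p for Tkt (0.52 ± 0.09, edgeR adjusted p = 0.000885), Pgd (1.58 ± 0.27, adjusted p = 0.00124) and Taldo1 (0.85 ± 0.16, adjusted p = 0.0018). The median log2 fold change of the 8 was 0.81, or 0.47 without Vehicle mice 1 and 2, and Rpe alone was lower (-0.46 ± 0.14, adjusted p = 0.0221). Of 22 tested genes of other glycolytic isozymes and glucose transporters 5 were higher and 1 lower, with the muscle enolase Eno3 (1.16 ± 0.15), the urate and glucose transporter Slc2a9 (2.53 ± 0.34) and Slc2a10 (1.34 ± 0.31) at the smallest p. Of 13 other monocarboxylate transporters and chaperones 4 were higher, among them the aromatic amino acid transporter Slc16a10 (1.61 ± 0.29), Slc16a9 (1.29 ± 0.33) and Slc16a13 (0.81 ± 0.23).

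Of 11 genes for pyruvate entry to mitochondria 3 were lower and 1 higher: the pyruvate dehydrogenase phosphatase Pdp1 (-1.05 ± 0.25) and the shared dehydrogenase subunit Dld (-0.20 ± 0.07) were lower and the kinase Pdk4 was higher (1.33 ± 0.32). Glycogen metabolism had 4 higher of 16, with the liver-type phosphorylase Pygl (2.02 ± 0.38), Pgm2 (1.41 ± 0.31) and the glycogen primer Gyg (0.34 ± 0.12). Of 11 HIF factors and regulators, Hif3a (1.32 ± 0.33) and Epas1, which encodes HIF-2 alpha (0.81 ± 0.21), were higher and the coactivator Crebbp was lower (-0.24 ± 0.07). Of 32 tested further hypoxia targets 14 were higher and 6 lower, with the lipid droplet gene Plin2 (4.63 ± 0.62) and heme oxygenase Hmox1 (5.46 ± 0.76) among the higher. The 6 lower included the angiogenic factor Vegfa (-0.69 ± 0.13, adjusted p = 0.00211) and the carbonic anhydrase Car12 (-1.55 ± 0.44, adjusted p = 0.0154). None of these 7 lists had a called gene between LJP and Vehicle. At an unadjusted p below 0.05 stood 6 of the 8 pentose phosphate genes, 17 of the 32 further hypoxia targets, 5 of the 13 other transporters, 6 of the 22 other isozymes and glucose transporters, 3 of the 11 pyruvate entry genes, 3 of the 16 glycogen genes and 1 of the 11 HIF factors, against 29.7% of all genes. The median log2 fold changes of the pentose phosphate genes and the further hypoxia targets were -0.54 and -0.08, and without Vehicle mice 1 and 2 they were -0.22 and -0.07. Hmox1 gave -3.23 ± 0.66 and Pgd -1.01 ± 0.27, both at an edgeR adjusted p of 0.0678. Between LJP and Sham the calls were 2 higher among the other isozymes and glucose transporters, 1 higher each among the other transporters and the HIF factors, and 2 higher and 3 lower among the further hypoxia targets, and the other 3 lists had none, against 3.85% of all genes higher and 0.9% lower. Without Vehicle mice 1 and 2, the calls between Vehicle and Sham were 6 higher and 0 lower for the pentose phosphate genes, 3 and 1 for the other isozymes and glucose transporters, 2 and 1 for the other transporters, 0 and 1 for pyruvate entry, 7 and 0 for glycogen, 1 and 1 for the HIF factors, and 11 and 7 for the further hypoxia targets, against 15.7% and 14% of all genes. Between LJP and Sham they were 3 and 1, 3 and 1, 3 and 1, 0 and 1, 4 and 0, 3 and 1, and 9 and 5 in the same order, against 12.3% and 12% of all genes, and between LJP and Vehicle none of the 7 lists had a call.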

How the data were processed

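The authors deposited raw read counts per gene for each mouse, with no normalization. Per the labels, poly(A) RNA was enriched before library preparation. The submitters' processing notes name featureCounts, DESeq2, GRCm39 and mm10, without roles. Gene positions in the table are those of RefSeq GRCm38.p6 for all 38 members. The aligner, the strand setting and the treatment of shared reads are not given in the sources used here. No library was a duplicate (chi-square per degree of freedom between mice of a group at least 2.56). The labels do not tie replicate numbers to shared litters or days.

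Counts were filtered with filterByExpr (17558 genes), normalized by TMM and fitted over all 12 mice with edgeR 4.0.16 (R 4.3.3). Adjusted p-values cover all 17558 genes. The test was checked on simulated counts. DESeq2 1.42.0, RLE or library-size scaling, no filter, a 2-group fit, a replicate block, the study's thresholds (absolute log2 fold change over 0.58, unadjusted p below 0.01) and leaving out each mouse were alternatives. Ratios used counts plus 0.5. Promoter letters came from RefSeq.

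The 38 members and all lists were chosen with earlier results of these data known. Values per mouse were given for members called with an absolute log2 fold change over 0.58 between Vehicle and Sham, the 6 smallest p between LJP and Vehicle, Gapdh, Hif1a, Pdha1 and the described ratio pairs, and from other lists the called genes with the 3 smallest p, of which 1 is not reported here. Pkm, P4ha1, Egln3, Vegfa, Car12 and the other members and genes described were added after their values were seen.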

Additional observations from a re-analysis of the deposited data

Results flagged for a closer look

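Within a group of 4 mice, a mouse was singled out where its gap to the nearest other mouse, as a share of the group's whole range, exceeded Dixon's 95% critical value for 4 samples. Chance marks about 1 in 20 groups, or 7.2 of the 144 groups examined, and 11 were marked. Sham mouse 1 was lowest for Aldoc (604 CPM against 655 to 661, a share of 0.899) and for Ldhb (393 against 420.4 to 422, 0.956).

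Vehicle mouse 1 was highest for Pdk2 (147 CPM against 116 to 119.7, a share of 0.872) and lowest for Ndrg1 (70.8 against 102 to 104, 0.939). Vehicle mouse 2 had the highest log2 ratio of Hk2 to Hk1 (-3.53 against -4.74 to -4.62, 0.899) and of Slc2a1 to Slc2a3 (1.98 against 0.50 to 0.74, 0.835), and Sham mouse 2 the highest log2 ratio of Hk2 to Hk1 in its group (-6.29 against -6.49 to -6.46, 0.875).

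In the LJP group, mouse 2 was lowest for Slc2a1 (165 CPM against 202 to 204, a share of 0.93), mouse 1 lowest for Pdk2 (97.7 against 114 to 118, 0.8291), mouse 4 highest for Pdha1 (202 against 183 to 186, 0.838) and mouse 3 lowest for Egln1 (102 against 109 to 109.5, 0.892).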

How the results depend on the processing

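Between Vehicle and Sham, the count of members higher was 12 and went to 7 at the study's thresholds and to 7 to 12 with single mice left out, and the count lower was 4 and went to 1 at the study's thresholds, 1 with library sizes alone, 2 in the 2-group fit and 1 to 7 with single mice left out. Over all genes the calls were 3982 higher and 3032 lower, 4737 and 2299 with library sizes alone, and 3253 and 1981 in the 2-group fit. With single mice left out they were 3260 to 4527 higher and 2025 to 3673 lower, and at the study's thresholds all genes were not counted. Between LJP and Vehicle, DESeq2 gave 1 higher and 1 lower and leaving out single mice 0 to 1 higher and 0 to 4 lower. Over all genes the calls between LJP and Vehicle were 0 higher and 4 lower, but 667 and 1640 by DESeq2, 1512 and 2345 without Vehicle mouse 3, 599 and 1496 without Vehicle mouse 4, and 50 and 543 with no filter. Between LJP and Sham, the 2-group fit gave 6 higher and 1 lower (2048 and 1995 over all genes), the fit without Vehicle mice 1 and 2 gave 6 higher and 2 lower (2225 and 2164 over all genes), and leaving out single mice 2 to 5 higher. Over all genes, the single-mouse fits ran from 350 higher and 43 lower without LJP mouse 3 to 1380 and 977 without Vehicle mouse 2. The causes were not tested.

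Among the calls between Vehicle and Sham, that of Pfkfb3 was lost in 8 of the 12 fits without 1 mouse, those of Ddit4 and P4ha1 in 6, those of Pkm and Ldha in 5, that of Pdk3 in 4, that of Bnip3 in 2 and that of Pdk2 in 1. The 6 other fits were DESeq2, RLE or library-size scaling, no filter, the 2-group fit and the replicate block. In these Pdk3 kept its call in 2, Bnip3 and Pkm in 3, Pfkfb3 and P4ha1 in 4 and Ldha in 5, and the other called members in all 6. Correlations of same-numbered mice in their deviations from the group means lay between -0.322 and 0.114. Differently numbered mice were not set beside them, so these values do not tell whether replicate numbers pair the mice. With a replicate block, 9 members were higher and 3 lower in Vehicle, none was called between LJP and Vehicle, and 2 were higher in LJP than in Sham, beside 3451 and 2659 genes over all between Vehicle and Sham and 405 and 59 between LJP and Sham.

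The reversed log2 fold changes given here were not called. Between Vehicle and Sham with single mice left out, Hk1 ranged from -0.0618 to 0.126, Pfkm from -0.00749 to 0.157, Aldoa from -0.00698 to 0.107, Pgam1 from -0.0612 to 0.031, Eno1 from -0.00396 to 0.0866, Pdk1 from -0.0297 to 0.0435 (with -0.00441 without Sham mouse 2) and Ndrg1 from -0.135 to 0.0338, and between LJP and Sham Ldha from -0.0129 to 0.0819. Library sizes alone gave 0.0459 for Pgam1 and 0.0346 for Egln1. Without Vehicle mice 1 and 2, Pfkl was 0.1004, Pgam1 0.0493 and Ndrg1 0.0333, and between LJP and Vehicle the sign turned in 14 of 38 members. Between Vehicle and Sham, standard errors of the enzymes of the other glycolytic steps ran from 0.07 (Pgk1) to 0.11 (Aldoc) on the log2 scale. Some small differences stood within them, such as Eno1 (0.04 ± 0.08), and others did not, such as Pgk1 (0.08 ± 0.07), which was not called.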
